A study of Mus musculus with 15 samples.

Results

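The comparison described here set oligodendrocytes (OLs) labelled as knockout (KO) for the transcription factor SRF against control OLs after 3 days of differentiation in culture. It used 8 of the 15 samples of the study, chosen by their labels: 4 control OL libraries and 4 SRF-KO OL libraries. The cells came from brains of SRF-floxed/floxed mice, in which Cre can excise part of both copies of Srf. Oligodendrocyte precursor cells (OPCs) were purified by immunopanning and infected on day 6 with a lentivirus. Control OLs received a lentivirus with GFP, and SRF-KO OLs received lentivirus-CRE-IRES-GFP, so all 8 cultures carried the floxed alleles, a lentivirus and GFP. No culture of unfloxed cells with Cre was part of the comparison, so effects of Cre itself and of SRF loss cannot be told apart. Groups follow the sample titles. The treatment label of the SRF-KO OLs names the Cre virus yet ends with the word control, and the design text of the series names a different kind of cell and Olig2-Cre, unlike the sample labels. The labels do not say whether replicates came from separate cultures or animals, so each p-value below measures the spread between these samples. Nor do they say how many cells took up the virus.

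SRF is a DNA-binding protein that recognises a short AT-rich element, the CArG box, as a dimer. With cofactors of the MRTF family, which are released when actin monomers are used up, it drives genes of actin filaments, their regulators and contractile proteins. With ternary complex factors such as ELK1 it drives immediate-early genes, which respond within minutes to growth signals. Oligodendrocytes depend on actin assembly to extend processes and on actin disassembly to wrap axons, and they make large amounts of myelin RNA as they mature.

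Srf itself (ENSMUSG00000015605, GRCm38 chromosome 17, 46548329 to 46556175, minus strand) fell. Its level in normalised CPM (counts scaled to a library of fixed size) was 7.91, 8.79, 9.34 and 7.13 in control OL replicates 1 to 4, and 3.05, 2.71, 2.06 and 4.34 in SRF-KO OL replicates 1 to 4. The groups did not overlap, and replicate 4 had the highest level of the knockouts. The log2 fold change was -1.45 ± 0.22 (SE, n = 4 against 4; edgeR adjusted p = 0.0224), which left 36.7% of the control mean. An exact permutation test over the 70 ways to divide the libraries gave a two-sided p of 0.0286, the smallest it can give. These levels rest on 348 expected counts in the controls and 103 in the knockouts. Cre removes part of a gene and the labels do not give the deleted part, so the remaining counts may come from exons and introns outside it. Gm26904, a long non-coding RNA on the other strand that spans all of Srf, had 12.9 to 17.6 CPM in the controls and 11.2 to 13.8 in the knockouts (log2 fold change -0.29 ± 0.15, edgeR adjusted p = 0.50). The cofactor genes had log2 fold changes of -0.15 (Mrtfa), 0.17 (Mrtfb), -0.30 (Elk1) and 0.15 (Elk4), none past the threshold.

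CArG boxes stand upstream of several genes described here, and 5 upstream stretches are shown so that the box can be seen beside its gene's values. They are from RefSeq on build GRCm38.p6, read 5′ to 3′ on the gene's strand, with each exact match to the CArG consensus in capitals. They lie at chr17:46556190-46556269 (minus strand) for Srf, chr2:156775278-156775337 (plus) for Myl9, chr10:79988519-79988578 (plus) for Cnn2, chr11:120348551-120348610 (minus) for Actg1 and chr14:20929148-20929205 (plus) for Vcl.
Srf: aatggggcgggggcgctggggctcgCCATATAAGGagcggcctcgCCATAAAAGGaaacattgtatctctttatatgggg
Myl9: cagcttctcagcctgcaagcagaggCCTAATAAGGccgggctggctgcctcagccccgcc
Cnn2: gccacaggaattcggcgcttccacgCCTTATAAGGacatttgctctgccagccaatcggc
Actg1: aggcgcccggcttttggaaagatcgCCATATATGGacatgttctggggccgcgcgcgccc
Vcl: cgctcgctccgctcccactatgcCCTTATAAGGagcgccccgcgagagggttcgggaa
The Srf stretch holds 2 boxes, and the other 4 hold 1 each. A match in this window is a description of the letters and not a measured binding site.

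Expected counts summed to between 7188698 and 13139258 in each control library and to between 4303739 and 11721394 in each knockout library. Library SRF-KO OL replicate 4 stood apart: on the first principal component of log2 CPM, which carried 40.5% of the variance, it lay at 80.5 and the other 7 libraries between -18.8 and 0.45. Mitochondrially encoded genes took 14.2% of its counts, against 9.08% to 11.6% in the other 7. At least 2-fold above the mean of the 3 other knockouts lay 791 genes, and at least 2-fold below it 1549, of 15193 genes tested. Each comparison was therefore made with and without it. Control OL replicate 4 lay close to some knockouts. Its log2 CPM correlated at 0.984, 0.981, 0.967 and 0.924 with SRF-KO OL replicates 1 to 4, and at 0.975 to 0.978 with the other controls. On the second component it lay at 0.92, the other controls between 22.4 and 30.6 and the knockouts between -41.2 and -4.13. Oligodendrocyte markers were abundant, and the 8 of them summed to 20343 to 38789 CPM in controls and 13944 to 19957 in knockouts. Markers of other cells were present too. The 6 astrocyte markers summed to 15198 to 32074 CPM in controls and 7440 to 11930 in knockouts, led by Gfap, while the 8 microglial markers summed to 10.3 to 15.6 and 11.9 to 16.7 CPM. The 5 neuronal markers were low, summed to 5.68 to 8.11 CPM in controls and 8.47 to 15.3 in knockouts, and none was called. Their sum was higher in every knockout library than in any control. Snap25 taken alone overlapped, at 1.41 to 2.60 CPM in controls and 2.20 to 4.34 in knockouts. The 6 markers of fibroblasts and mural cells summed to 3.52 to 5.03 and 3.19 to 5.25 CPM. Endothelial markers summed to at most 1.89 CPM with Cldn5 at 0 in all libraries. Fewer cells of a type and less RNA per cell cannot be told apart in these cultures.

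**Figure D1:**
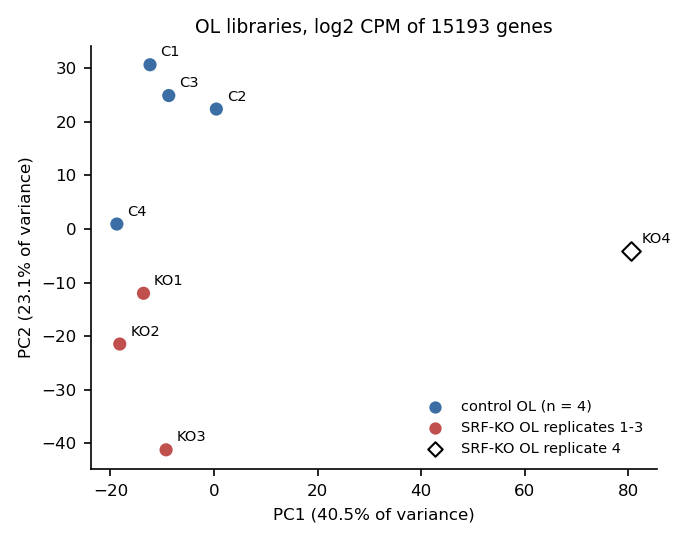
Each point is 1 OL library on the first (x axis) and second (y axis) principal component of log2 CPM over 15193 genes, in units of the component scores, with controls C1 to C4 in blue, knockouts KO1 to KO3 in red and KO4 as an open diamond. KO4 lies at 80.5 on the first component while the other 7 lie between -18.8 and 0.45, and control C4 is the control nearest the knockouts on the second.

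With all 8 libraries, 45 of 15193 genes were called (edgeR adjusted p under 0.05), a share of 0.296%. Of these 10 were higher (0.0658%) and 35 lower (0.23%) in SRF-KO OLs, and at an unadjusted p under 0.05 there were 1757 (11.6%). Groups did not overlap in any of the 45, against 8.09% of all genes tested. The number of calls fell to 7 without SRF-KO OL replicate 2, to 8 without SRF-KO OL replicate 3 or control OL replicate 2 or 3, and to 14 without control OL replicate 1, and it was 71 without control OL replicate 4. Without SRF-KO OL replicate 4, 636 of 15434 genes were called (4.12%), 231 higher (1.5%) and 405 lower (2.62%), and all 45 were among them in the same direction. Leaving out SRF-KO OL replicate 2 as well took the 636 to 32, the lowest number, and leaving out control OL replicate 4 as well took it to 1985, the highest. Control OL replicate 4 had the lowest control value in 309 of the 402 lower genes tested in both fits (76.9%), against 33.2% of all genes. When libraries were scaled by their totals, the median of all genes moved to 0.24 on the log2 scale with 8 libraries, and the calls became 39 higher and 35 lower. Without replicate 4 that scaling moved the median to 0.25 and gave 1490 higher and 201 lower, so the balance of the 2 directions rests on the scaling.

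The called genes that rose were few and included secreted and membrane-linked proteins. Mmp2, a gelatin-degrading matrix metalloprotease, had 2.33, 1.93, 1.22 and 1.12 CPM in controls and 12.2, 9.81, 10.5 and 6.79 in knockouts. Every knockout library exceeded every control, and the log2 fold change was 2.57 ± 0.27 (SE, n = 4 against 4; edgeR adjusted p = 0.00463). Rnase4, a secreted ribonuclease, had 1.49, 2.02, 1.99 and 1.89 CPM in controls and 7.79, 8.14, 8.43 and 9.43 in knockouts. It rose by 2.18 ± 0.19 on the log2 scale (edgeR adjusted p = 0.00185), but 72.0% of its span is shared with Ang, so reads of these 2 genes may not be separable. Lbp, which carries bacterial lipopolysaccharide to its receptor, had 3.35, 4.22, 5.20 and 4.47 CPM in controls and 12.9, 14.9, 14.8 and 19.2 in knockouts. The control and knockout levels were again separate, with a log2 fold change of 1.84 ± 0.19 (edgeR adjusted p = 0.00453). These 3 genes were called in all 8 repeats that each left out 1 library.

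Prrg4, a membrane protein with a vitamin K-dependent domain, had 2.02 to 3.44 CPM in controls and 7.50 to 8.64 in knockouts, and rose by 1.51 ± 0.20 on the log2 scale (edgeR adjusted p = 0.0121). Anxa3, an annexin that binds membranes with calcium, had 1.49 to 2.46 and 4.24 to 5.96 CPM, a log2 fold change of 1.37 ± 0.24 (edgeR adjusted p = 0.0430). Ppic, a cyclophilin of the secretory pathway, had 16.5 to 21.3 and 34.9 to 54.7 CPM, and Pqlc3 had 7.50 to 9.15 and 16.03 to 19.95, with log2 fold changes of 1.06 and 1.08. Both were past the threshold (edgeR adjusted p = 0.0250 and 0.0121), as was the pseudogene Gm7334 with a log2 fold change of 1.05. Anxa3 was called in 1 of the 8 repeats that each left out a library, Ppic in 2, Prrg4 and Pqlc3 in 4 each, and Gm7334 in 5.

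Higher genes Tacc2 and Peak1os lie inside genes that fell, and since the Smart-seq2 protocol does not mark strand, reads of such pairs may not be separable. Tacc2, a protein of the centrosome and spindle, lies wholly within the annotated span of Fgfr2 on chromosome 7. It had 2.61, 2.72, 0.918 and 3.91 CPM in controls and 10.2, 7.26, 12.3 and 10.2 in knockouts, a log2 fold change of 1.88 ± 0.31 (edgeR adjusted p = 0.0295). Peak1os (chromosome 9, 56257890 to 56267780, plus strand), an antisense RNA named here because it was called and outside the rule for named genes, lies wholly within Peak1. It had no count in any control and 28, 49, 23 and 11 counts in the knockouts, 111 in all. Against a floor of 3 counts over the control group it was at least 46.1-fold higher (edgeR adjusted p = 0.0109). All 4 knockout libraries held reads there and no control did.

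Of the 27 protein-coding genes that fell, 14 met the intron mark described further below, 4 are described beside them, 1 is the gene model Gm17087, and 8 are Srf and the following. Opalin, a membrane glycoprotein of myelinating oligodendrocytes, had 15.4, 14.9, 14.5 and 11.5 CPM in controls and 4.57, 4.55, 4.94 and 8.30 in knockouts. The groups were separate, though replicate 4 lay far above the other knockouts, and the log2 fold change was -1.37 ± 0.21 (edgeR adjusted p = 0.0228), or -1.61 without that library (adjusted p = 0.000449). Sfrp5, a secreted antagonist of Wnt ligands, had 33.0, 39.5, 36.4 and 31.0 CPM in controls and 11.4, 13.3, 14.8 and 20.4 in knockouts. It too was separate between groups, with replicate 4 the highest knockout, and fell by 1.24 ± 0.18 on the log2 scale (edgeR adjusted p = 0.0193).

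Slc16a8, a monocarboxylate transporter of the MCT family, had 5.58, 3.95, 7.19 and 6.78 CPM in controls and 0.847, 1.04, 1.44 and 0.189 in knockouts. Its lowest level was in replicate 4, and the log2 fold change was -2.69 ± 0.36 (edgeR adjusted p = 0.0121). All of its span is shared with the coding gene Gm49486, so reads of these 2 genes may not be separable. It was called in 6 of the 8 repeats that left out 1 library, against 2 for Srf, Opalin, Matn4 and Kcna5, 3 for Sfrp5 and Adam11, and 1 for Col2a1. Matn4, a matrix protein of OPCs, had 31.1 to 40.9 CPM in controls and 17.4 to 21.8 in knockouts (log2 fold change -0.85 ± 0.14, edgeR adjusted p = 0.0250). Col2a1, the chain of collagen II, had 7.63 to 8.72 and 3.30 to 4.73 CPM (-0.99 ± 0.18, edgeR adjusted p = 0.0430). Adam11, a catalytically inactive ADAM protein, fell by 1.05 and Kcna5, a voltage-gated potassium channel without introns, by 0.71 on the log2 scale, both without overlap of the groups.

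**Figure D2:**
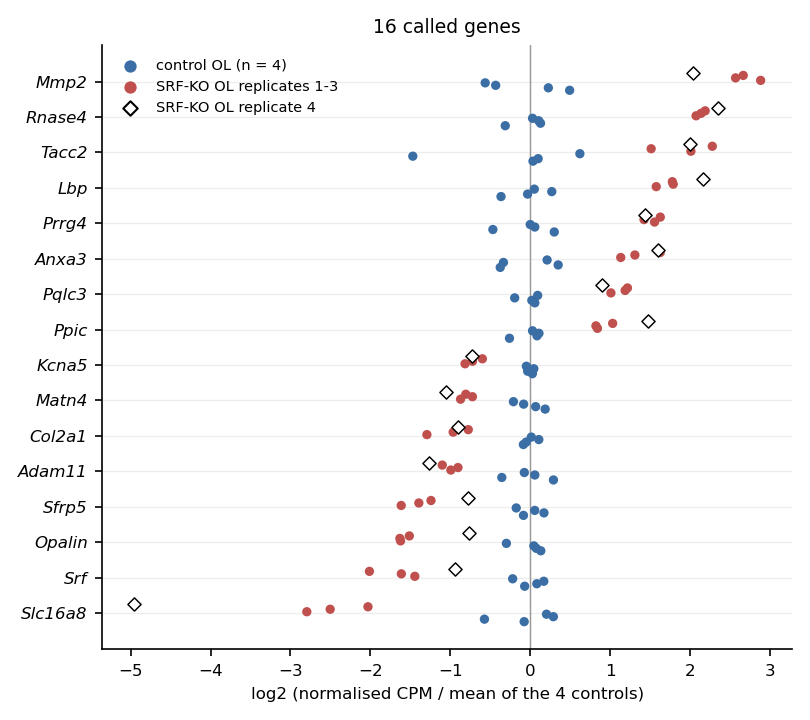
For 16 called genes, each point is 1 library's normalised CPM divided by the mean of the 4 controls, on a log2 x axis, with controls in blue, knockouts 1 to 3 in red and knockout 4 as an open diamond. Controls and knockouts are separate in every line shown, with knockout 4 nearest the controls for Srf, Opalin and Sfrp5 and lowest for Slc16a8.

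Many of the coding falls were of genes with long introns. The deposited OL gene lengths equal the genomic span, introns included, for at least 90.01% of 8995 single-transcript genes, and the spliced length for 0%, while in the control OPC files at least 89.8% equal the spliced length. From these lengths it is inferred that OL counts take in intronic reads. A gene was therefore marked as possibly intron-driven where introns make up at least 90% of its span and its control OL level was at least 4 times its level in control OPC libraries. Differentiation and the way of counting cannot be told apart in that ratio. Of the 35 lower calls 14 were so marked (40%), against 4.6% of all genes tested. The mark uses the control OL level, in which lower calls are high, so these shares are partly fixed by it and are a description. The 14 include Rsph3b, Tmem56, Fgfr2, Trim30a, Tmtc2, Arhgap21, Jarid2, Itga9, Camk1d, Dnah7b, Gphn, Il31ra and Peak1. Among the higher calls 1 of 10 was marked, Anxa3.

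Zc3h7a, Cdk8, Atf2 and Mphosph8, with introns over 77.0% to 89.2% of their spans, missed the mark by intron share alone, as did Opalin and Gm13187. In the 14 marked genes log2 fold changes ran from -2.58 to -1.60. Control OL replicate 4 was the lowest control and SRF-KO OL replicate 3 the lowest of knockouts 1 to 3 in all 14, against 33.2% and 33.3% of all genes tested. The same held for 9 and 6 of the 12 other coding falls, Gm17087 left out. Among the 6 genes named above that missed the mark, Opalin and Gm13187 included, it held for 6 and 4. For the 7 of the 12 that are not among those 6, it held for 4 and 2. Over all 699 genes tested that met the mark, called or not, the shares were 25.6% and 36.2%, and their median log2 fold change was -0.10.

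Zc3h7a, a zinc finger protein gene on chromosome 16, gives the profile at the highest level. It had 20262, 15043, 24219 and 10430 CPM in controls and 5951, 3232, 1660 and 3759 in knockouts, against a mean of 36.3 CPM in control OPCs. Every knockout lay below every control, and the log2 fold change was -2.26 ± 0.39 (edgeR adjusted p = 0.0365). Il31ra, an interleukin receptor subunit, had 1521, 960, 1651 and 753 CPM in controls and 435, 312, 144 and 175 in knockouts, and no count in control OPCs. Its log2 fold change was -2.19 ± 0.37 (edgeR adjusted p = 0.0338), with the same order of libraries as Zc3h7a except for the place of replicate 4. Itga9, an integrin alpha subunit, had 95, 46.7, 38.9 and 29.1 CPM in controls and 11.6, 7.02, 6.79 and 9.43 in knockouts. It fell by 2.57 ± 0.35 on the log2 scale (edgeR adjusted p = 0.0145), and its controls spread more widely than its knockouts. Fgfr2, a receptor for fibroblast growth factors, is annotated over 2960900 bases with 58.2% of them shared with other genes, and had 616 to 1325 CPM in controls and 183 to 403 in knockouts. Whether intronic reads set these falls was not tested, since files with exon and intron counts apart were not used here.

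**Figure D3:**
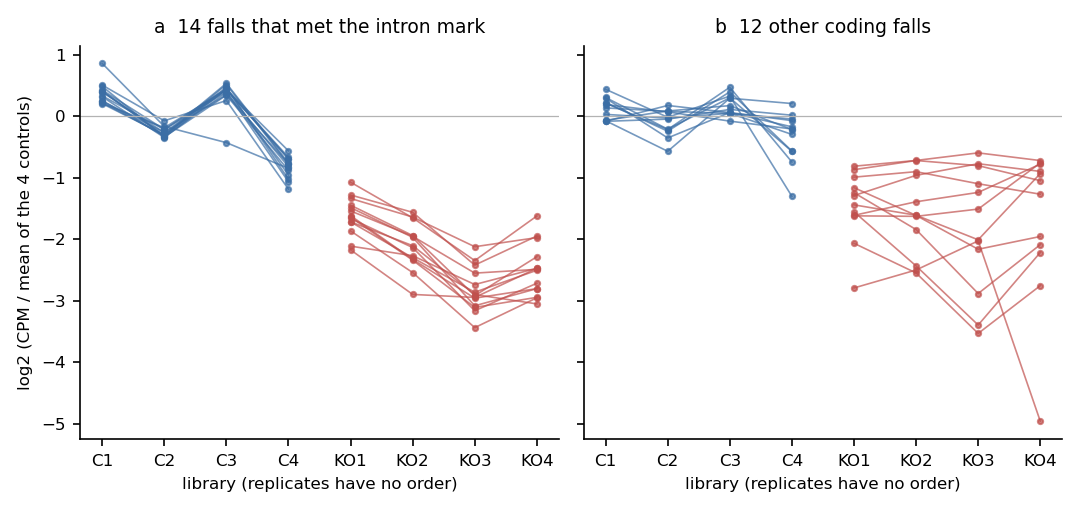
Each line is 1 gene that fell, drawn as log2 of CPM over the mean of the 4 controls (y axis) across libraries C1 to C4 (blue) and KO1 to KO4 (red) on the x axis, for the 14 falls that met the intron mark (a) and the 12 other coding falls (b). In panel a C4 is the lowest control and KO3 the lowest of KO1 to KO3 in all 14 lines, and in panel b in 9 and 6 of the 12. Panel b includes Zc3h7a, Cdk8, Atf2, Mphosph8 and Opalin, which missed the mark by intron share alone.

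Short and non-coding RNAs made up the other lower calls. Rn7sk, the 7SK RNA that holds back transcription elongation, had 20.9, 14.8, 17.3 and 12.8 CPM in controls and 6.95, 5.90, 3.29 and 6.98 in knockouts (log2 fold change -1.47 ± 0.23, edgeR adjusted p = 0.0228). Rn7s1 and Rn7s2, near-identical 7SL RNA genes that carry the same values, had 10.9 to 15.0 CPM in controls and 1.44 to 4.15 in knockouts, and fell by 2.07 ± 0.25 on the log2 scale (edgeR adjusted p = 0.0109). They were called in all 8 repeats that left out 1 library. mt-Ts1, a mitochondrial transfer RNA, had 52.8 to 175 and 15.1 to 21.3 CPM, and Ftl2-ps, a pseudogene inside Grik3, had 6.64 to 60.9 and 0 to 3.13 CPM. Mir6236 had 1.61 to 18.1 CPM in controls and 0.0847, 0.0798, 0 and 0 in knockouts. Gene models Gm17087 (annotated as coding, inside Pde10a), Gm9905 and Gm13187 complete the 35. These RNAs are short or largely not polyadenylated, and the libraries were made from polyA RNA. An annotated ribosomal RNA gene, CT010467.1, moved in the same direction without passing the threshold, with 12131 to 22382 CPM in controls and 8040 to 13888 in knockouts (log2 fold change -0.78 ± 0.26, edgeR adjusted p = 0.281). Part of ribosomal or intronic RNA in these falls was not tested.

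Gene lists were read by their counts and by the median log2 fold change of tested members. Beside them stands, over all genes, a median of 0.02 with 8 libraries, -0.00 without replicate 4 and 0.24 under library totals. Of the 15193 genes tested with 8 libraries, 8187 lay above 0 and 7006 below. Without replicate 4, 2.62% of all genes were called lower and 1.5% higher. These values are the measure for every list below. SRF-MRTF targets had 27 of 31 members tested, a median of -0.16 (0.06 under library totals, beside 0.24 for all genes) and 22 members below 0, and none was called with 8 libraries. By library, the list's median relative to the control mean was 0.03, 0.10, 0.01 and -0.10 in controls and -0.26, -0.16, -0.24 and -0.19 in knockouts, so the groups did not overlap. The groups were also apart for newly formed oligodendrocyte genes, lineage transcription factors, integrins and focal adhesion, and interferon response. Without SRF-KO OL replicate 4, 6 members fell (Actb, Cfl1, Cnn2, Myl9, Flna and Tgfb1i1) and 1 rose (Cnn1) of 27, against 2.62% lower and 1.5% higher among all genes, with a median of -0.24. Scaling by library totals kept the direction of all 7, and Myl9, Flna and Tgfb1i1 then missed the threshold.

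Actb, which encodes the main non-muscle actin, had 9628, 8694, 7819 and 4923 CPM in controls and 3454, 3556, 2424 and 4796 in knockouts. Replicate 4 lay just under the lowest control and the 3 other knockouts well below it. Its log2 fold change was -1.13 ± 0.27 (edgeR adjusted p = 0.154), and -1.32 without replicate 4 (adjusted p = 0.0151), where it remained called in 4 of 7 repeats that left out 1 more library. Actg1, the other cytoplasmic actin, had 7783, 6416, 5521 and 4268 CPM in controls and 4221, 4583, 3945 and 5231 in knockouts. The groups overlapped, and its log2 fold change of -0.42 ± 0.22 did not pass the threshold (edgeR adjusted p = 0.518). Of the genes whose upstream boxes are printed above, Vcl, which links integrins to actin, had 13.9 to 21.9 and 13.2 to 17.1 CPM and a log2 fold change of -0.12 ± 0.17 (edgeR adjusted p = 0.854).

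Cnn2, an actin-binding calponin, had 42.7, 46.8, 36.4 and 33.2 CPM in controls and 19.99, 23.2, 27.1 and 32.3 in knockouts. It fell by 0.80 on the log2 scale without replicate 4 (edgeR adjusted p = 0.0112), and its 8-library value of -0.65 ± 0.17 missed the threshold (adjusted p = 0.190). Myl9, a regulatory myosin light chain, had 47.2, 70.8, 58.2 and 55.8 CPM in controls and 30.3, 34.4, 39.9 and 65.5 in knockouts. Replicate 4 lay inside the control range there, and the log2 fold change moved from -0.46 (edgeR adjusted p = 0.485) to -0.77 without it (adjusted p = 0.0138). The same library lay inside the control range for Cfl1, an actin-severing cofilin, with 2564, 2137, 1814 and 1244 CPM in controls and 1098, 1045, 1053 and 1382 in knockouts. Flna, a filamin that crosslinks actin, had 70.9 to 83.6 and 49.2 to 60.6 CPM, and Tgfb1i1, a focal adhesion adaptor, had 9.96 to 15.1 and 6.10 to 9.24. Cnn1, a smooth muscle calponin, ran the other way, with 4.75 to 6.14 and 8.05 to 14.3 CPM, and its 7-library rise of 0.68 was called in 1 of 7 repeats. Cfl1 was called in 1 of those 7 as well, Tgfb1i1 in 2, Flna in 3, Myl9 in 5 and Cnn2 in 6.

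An exact CArG box lay in the 250 bases upstream of 9 of the 26 SRF-MRTF targets found in the promoter table (34.6%), against 1.62% of all 27025 genes there. The motif is a CC, 6 letters of A or T and a GG, which reads as itself in form on both strands. The list was drawn up as targets of SRF, so this share describes the list. Of the 9, Cnn2 and Myl9 fell without replicate 4, and Actg1, Vcl, Lima1 and Fhl2 had log2 fold changes of -0.42, -0.12, -0.35 and -0.30 with 8 libraries. The remaining members of the 9 are not given here, so these values do not describe all targets with a box. Actb is not in the table. Over all genes that fell without replicate 4, 6 of the 226 in the table held a box (2.65%: Cnn2, Lamtor4, Myl6, Myl9, Srf and Tmem163), against 1.32% of all genes tested and 1 of 149 that rose (0.671%: Cldn12).

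Immediate-early genes, the other known SRF programme, had a median of 0.16 over 23 tested members with 15 above 0, and none was called with 8 libraries. Among all genes, 8187 of 15193 lay above 0. Egr1, a zinc finger factor induced by growth signals, had 11.9, 17.0, 15.2 and 14.9 CPM in controls and 10.2, 14.4, 16.7 and 13.4 in knockouts, and the groups overlapped. Fos had 61.6 to 75.7 and 58.3 to 79.2 CPM. Their log2 fold changes were -0.12 ± 0.18 and -0.05 ± 0.14 (edgeR adjusted p = 0.850 and 0.940). Without replicate 4, Btg2, an antiproliferative factor, rose by 0.61 (edgeR adjusted p = 0.0158) and Jund, a subunit of AP-1, fell by 0.72 (adjusted p = 0.0235), though Jund missed the threshold under library totals.

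The wider actin lists had medians close to that of all genes. Actin assembly and turnover had 37 members tested and a median of 0.00, and actomyosin genes had 19 and a median of -0.02. None of either was called with 8 libraries. Without replicate 4, Arpc1b, a subunit of the actin-nucleating complex, Tmsb10, a thymosin that binds actin monomers, and Myl6, an essential myosin light chain, fell. Arpc1b was called in 1 and Tmsb10 in 2 of 7 repeats that left out 1 more library. Both missed the threshold under library totals without replicate 4. Myl6 had 135, 144, 120 and 90.1 CPM in controls and 66.8, 68.5, 76.9 and 130 in knockouts, so replicate 4 lay among the controls. Its log2 fold change was -0.52 with all libraries (edgeR adjusted p = 0.420) and -0.81 without that one (adjusted p = 0.0118), called in 6 of 7 further repeats. For integrins and focal adhesion the median was -0.12 (0.10 under library totals, and 0.00 without genes that meet the intron mark) over 32 members, 1 was called with 8 libraries (Itga9, marked above for introns), and without replicate 4 Parvb, Tns3 and Fyn fell too while Itgb8 rose. Parvb and Tns3 meet the intron mark as well. Parvb, Tns3 and Fyn missed the threshold under library totals without replicate 4. Of 7 further repeats, Parvb and Tns3 were called in 2 each, and Fyn and Itgb8 in 1 each. Tubulin and microtubule genes had a median of -0.11 (0.11 under library totals) over 26 members, none called with 8 libraries, and Dynll2, a dynein light chain, Tubb4a, the beta-tubulin of mature oligodendrocytes, and Map1a fell without replicate 4. Dynll2 was called in 6 of 7 further repeats, and Tubb4a and Map1a in 1 each. Map1a missed the threshold under library totals without replicate 4. Dynll2 had 106 to 141 CPM in controls, 67.9 to 79.4 in knockouts 1 to 3 and 116 in replicate 4.

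Genes of newly formed oligodendrocytes, which mark the step from precursor to myelinating cell, had a median of -0.39 over 26 tested members with 24 below 0, or -0.17 under library totals and -0.29 without genes that meet the intron mark. None was called with 8 libraries. Their per-library median lay between -0.07 and 0.09 in controls and at -0.37, -0.28, -0.30 and -0.58 in knockouts, without overlap. Without replicate 4 the median was -0.36, with 8 lower calls (Bcas1, Sirt2, Kif19a, Cnksr3, Rnf122, Arpc1b, Frmd4a and Tnr) and 1 higher (Prom1), against 2.62% and 1.5% of all genes. Bcas1, a protein of early myelinating cells that meets the intron mark, had 2356, 1989, 1727 and 1365 CPM in controls and 1134, 1081, 1056 and 935 in knockouts. Every knockout was below every control, and the log2 fold change was -0.82 ± 0.19 (edgeR adjusted p = 0.154) or -0.79 without replicate 4 (adjusted p = 0.0289), called in 1 of 7 further repeats. Under library totals without replicate 4, Bcas1 and Sirt2 remained called and the 6 others missed the threshold.

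Myelin genes had a median of -0.20 (0.02 under library totals, beside 0.24 for all genes) over 30 tested members. Of these 22 were below 0, and 1 was called (Opalin). Mbp, a main myelin protein gene, had 13023, 9896, 8892 and 6413 CPM in controls and 4751, 6500, 5733 and 6632 in knockouts, so the groups overlapped. Its log2 fold change of -0.69 ± 0.24 did not pass the threshold (edgeR adjusted p = 0.295). Without replicate 4 the myelin calls went both ways, beside 2.62% of all genes lower and 1.5% higher. Cldn11, a claudin of the myelin sheath, Gjc3, a connexin, Nfasc, an adhesion protein of the paranode, and Opalin fell, while Mal, Trf and Anln rose. Gjc3 and Nfasc missed the threshold under library totals. Of 7 repeats that left out 1 more library, Opalin was called in 7, Mal in 3, Nfasc and Trf in 2 each, and Cldn11, Gjc3 and Anln in 1 each. Trf, the iron carrier transferrin, had 210 to 275 CPM in controls, 303 to 385 in knockouts 1 to 3 and 243 in replicate 4.

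Lineage transcription factors had a median of -0.16 (0.05 under library totals) over 31 members, 22 below 0, and none was called with 8 libraries. Without replicate 4, 4 fell and none rose, against 2.62% lower and 1.5% higher among all genes. Nkx6-2, a homeodomain factor of maturing oligodendrocytes, had 65.7, 62.3, 59.2 and 48.0 CPM in controls and 38.2, 32.5, 32.5 and 40.9 in knockouts. Its groups were separate with or without replicate 4, and the log2 fold change was -0.71 ± 0.15 (edgeR adjusted p = 0.0863) or -0.79 (adjusted p = 0.00763). Tcf7l2, a Wnt effector of differentiating oligodendrocytes, had 224, 234, 226 and 234 CPM in controls and 157, 165, 143 and 148 in knockouts, also separate. Myrf, the activator of myelin genes, had 31.5 to 49.1 and 15.8 to 27.4 CPM, and Sox10, which specifies the lineage, had 264 to 359 and 184 to 243. Their log2 fold changes without replicate 4 were -0.59, -0.86 and -0.59 for Tcf7l2, Myrf and Sox10, and under library totals Tcf7l2 and Sox10 missed the threshold. Olig2 had a value of -0.40 ± 0.21 (edgeR adjusted p = 0.525).

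OPC genes had a median of -0.07 (0.15 under library totals) over 25 members, with Matn4 the 1 call with 8 libraries. Without replicate 4, Pdgfra, the growth factor receptor of OPCs, and Gria3, a glutamate receptor subunit, rose, while Matn4, C1ql1 and the proteoglycan genes Ncan and Bcan fell. C1ql1 missed the threshold under library totals without replicate 4. Of 7 repeats that left out 1 more library, Matn4 was called in 7 and C1ql1 in 4. Pdgfra and Bcan were called in 3 each, Ncan in 2 and Gria3 in 1. Pdgfra had 50.6, 52.2, 49.4 and 53.4 CPM in controls and 74.4, 73.2, 66.4 and 54.5 in knockouts. Replicate 4 lay just above the controls, and the log2 fold change was 0.39 ± 0.13 (edgeR adjusted p = 0.298) or 0.45 without it (adjusted p = 0.0231). Ncan had 1133 to 1333 CPM in controls and 397 to 803 in knockouts. Bcan had 574 to 1311 and 173 to 467. The summed OPC markers overlapped, at 1117 to 1261 CPM in controls and 1158 to 1303 in knockouts.

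**Figure D4:**
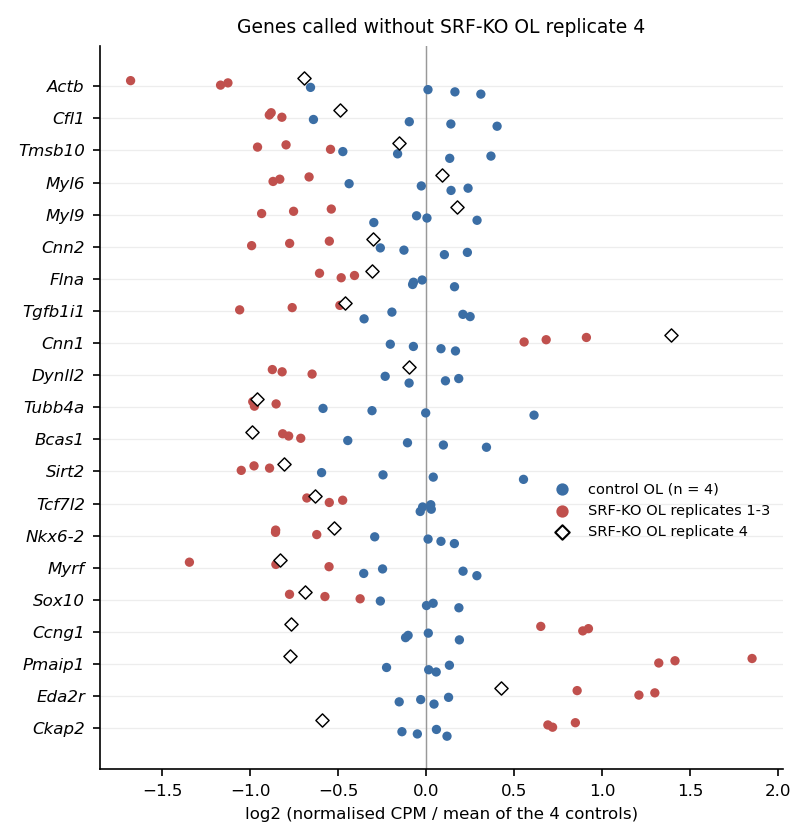
For 21 genes called when SRF-KO OL replicate 4 was left out, each point is 1 library's normalised CPM over the mean of the 4 controls on a log2 x axis, with controls in blue, knockouts 1 to 3 in red and replicate 4 as an open diamond. Replicate 4 lies with the controls or beyond them for Myl6, Myl9, Dynll2, Ccng1, Pmaip1 and Ckap2, and with the other knockouts for Bcas1, Tcf7l2 and Sox10.

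Some genes of cell division and of the p53 response rose once replicate 4 was left out. The 40 cell cycle genes had a median of 0.22 (0.44 under library totals), with 38 above 0, against 8187 of 15193 among all genes. None was called with 8 libraries. Without replicate 4, Ccna2 and Ccnb1, cyclins of S phase and mitosis, Mcm4, a subunit of the replicative helicase, and Rrm2, a subunit of ribonucleotide reductase, rose. These 4 of 40 stand beside 1.5% of all genes called higher. Of 7 repeats that left out 1 more library, Ccna2 and Ccnb1 were called in 4 each, and Mcm4 and Rrm2 in 2 each. Ccnb1 had 17.8 to 25.05 CPM in controls, 31.0 to 38.9 in knockouts 1 to 3 and 22.4 in replicate 4, and its 7-library log2 fold change was 0.71 (edgeR adjusted p = 0.0158). The list's median in replicate 4 was -0.00, inside the controls' range of -0.04 to 0.08.

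The 33 tested targets of p53, a transcription factor activated by DNA damage, had a median of 0.40 with 8 libraries. It was 0.62 under library totals and 0.29 without replicate 4. None was called with 8 libraries, and 9 of 33 rose without replicate 4, against 1.5% of all genes: Ccng1, Pmaip1, Trp53inp1, Eda2r, Plk2, Polk, Ak1, Ckap2 and Slc19a2. By library the list's median lay between -0.11 and 0.09 in controls, at 0.39, 0.28 and 0.36 in knockouts 1 to 3, and at -0.20 in replicate 4. Pmaip1, the cell death protein NOXA, had 6.70, 6.50, 5.51 and 7.06 CPM in controls and 16.1, 17.2, 23.2 and 3.77 in knockouts. Replicate 4 was below every control and the others above, and the log2 fold change was 1.22 ± 0.37 (edgeR adjusted p = 0.237) or 1.48 without it (adjusted p = 0.000717). Eda2r, a receptor of the tumour necrosis factor family, had 7.26, 6.33, 6.89 and 7.69 CPM in controls and 16.3, 17.3, 12.8 and 9.43 in knockouts. All 4 knockouts lay above the controls, and its log2 fold change of 1.01 ± 0.19 narrowly missed the threshold (edgeR adjusted p = 0.0649). Cdkn1a, which encodes the cycle inhibitor p21, had 49.95 to 76.5 CPM in controls and 79.5, 71.1, 75.9 and 166 in knockouts, with a log2 fold change of 0.67 ± 0.26 (edgeR adjusted p = 0.367).

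Pmaip1, Eda2r, Ckap2, S100b, Steap4 and Slc6a15 were called in all 7 repeats that left out replicate 4 and 1 more library. Of the other p53 targets that rose, Ccng1, Trp53inp1 and Slc19a2 were called in 6 each, Plk2 in 4, Polk in 3 and Ak1 in 2. Slc6a15, a transporter of neutral amino acids, had 7.63 to 9.49 CPM in controls, 21.3 to 22.2 in knockouts 1 to 3 and 6.60 in replicate 4. Steap4, a metalloreductase, had 21.03 to 33.9 CPM in controls, 61.8 to 76.9 in knockouts 1 to 3 and 19.99 in replicate 4. Both rose without replicate 4, by 1.31 and 1.24 on the log2 scale (edgeR adjusted p = 0.000394 and 0.00243). In both, replicate 4 lay below every control.

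Astrocyte genes were read in the same way. By library the list's median relative to the control mean was 0.28, 0.03, -0.02 and -0.27 in controls and -0.37, -0.17, -0.32 and -0.28 in knockouts, so the groups overlapped. The 19 tested members had a median of -0.26 (-0.02 under library totals), with 17 below 0 and none called with 8 libraries, and Gfap and S100b fell without replicate 4. Gfap, the intermediate filament of astrocytes, had 28228, 17129, 17337 and 12256 CPM in controls and 8749, 8977, 7442 and 4778 in knockouts. The groups did not overlap, and the log2 fold change was -1.32 ± 0.30 (edgeR adjusted p = 0.125) or -1.18 without replicate 4 (adjusted p = 0.0319), called in 2 of 7 further repeats. The part of other cells in the lower lists was not tested.

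Matrix genes had a median of 0.10 over 33 members with Mmp2 called, and without replicate 4 Adamts5 rose while Adamts4, Col11a2 and Loxl1 fell. Cholesterol synthesis had a median of 0.02 over 24 members, and fatty acid and sphingolipid synthesis -0.18 (0.05 under library totals) over 22, where replicate 4 had a list median of -0.48 and the 7 others between -0.10 and 0.18. Of all 636 genes called without replicate 4, 405 were lower and 231 higher. Of the 74 list genes among them 46 were lower and 28 higher. Under library totals without replicate 4, all 28 of the higher and 23 of the lower were called in the same direction, and no gene changed sign.

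**Figure D5:**
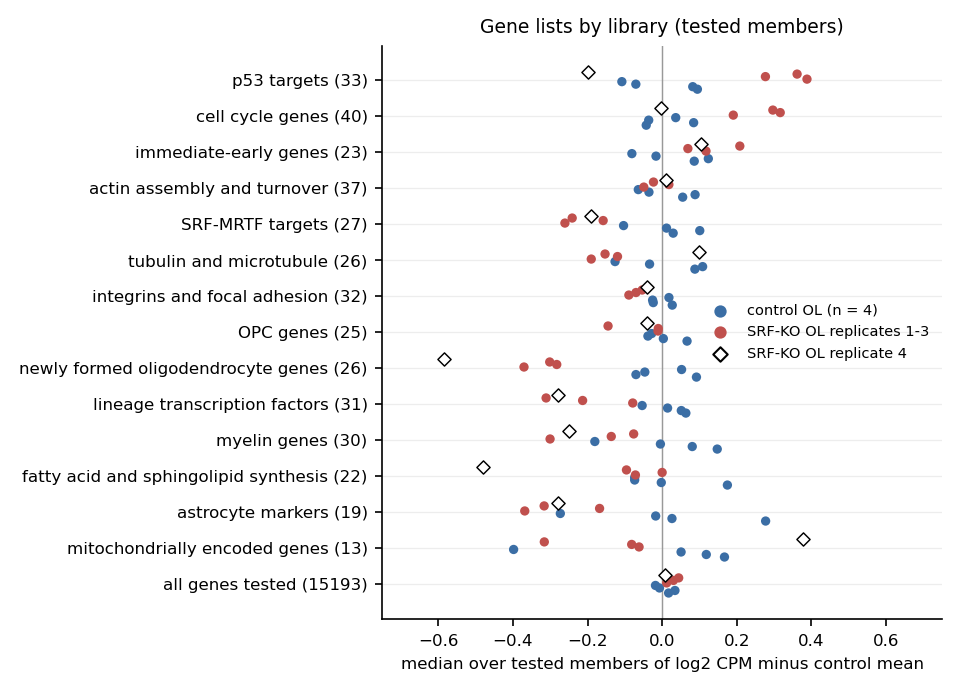
Each point is 1 library's median, over the tested members of a list (number in brackets), of log2 CPM minus the control mean (x axis), with controls in blue, knockouts 1 to 3 in red and knockout 4 as an open diamond. The lists of newly formed oligodendrocyte genes, SRF-MRTF targets, lineage transcription factors, and integrins and focal adhesion keep controls and all 4 knockouts apart. For p53 targets knockout 4 lies at -0.20 and knockouts 1 to 3 between 0.28 and 0.39.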

How the data were processed

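RNA was measured in 8 OL libraries made by Smart-seq2 from polyA RNA and read as single reads of 63 bases, per the labels' protocols. The submitters' processing notes name bcl2fastq, STAR and RSEM without versions, and the builds GRCm38 and Rnor_6.0 without roles. The deposited values used are the authors' RSEM expected counts for 45706 mouse gene IDs, of which 45143 have a position in GENCODE M21 (GRCm38). The other deposited column used, gene length in bases, was compared with that annotation. Control OPC libraries entered only the intron mark.

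Expected counts were rounded to whole numbers, filtered with filterByExpr, scaled by TMM and compared by the quasi-likelihood F-test of edgeR 4.0.16 (R 4.3.3) with group as the only term and Benjamini-Hochberg adjustment over all genes tested. CPM are TMM-scaled and SE is the absolute log2 fold change over the square root of F. Alternatives used DESeq2 1.42.0, limma 3.58.1, other scalings and filters, and fits without 1 library.

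Genes named are Srf, called genes with average log2 CPM of at least 1, the 10 largest changes each way without replicate 4 at average log2 CPM of at least 3, and from each of 28 lists the 2 members with the smallest p and the most abundant one. Further members of the 28 lists were picked for naming once their values were known. Some were called and others not, such as Egr1, Fos, Mbp, Actg1, Vcl, Olig2 and Cdkn1a. The same holds for Gm26904, CT010467.1 and other genes outside this rule. The members and lists were chosen with earlier results of these data known. Of 636 list members 635 matched. Sequences are from the RefSeq promoter table. A few genes are not reported here by name.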

Additional observations from a re-analysis of the deposited data

Results flagged for a closer look

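In each group of 4 libraries, the gap between an end library and its nearest neighbour was divided by the range of the group and set against Dixon's 95% critical value for 4 samples, which chance exceeds in about 1 of 20 groups. Of 238 groups examined (115 named genes and the library measures) 20 exceeded it, and 12 of these concerned SRF-KO OL replicate 4. Some genes were named for their change without SRF-KO OL replicate 4, a choice that favours genes where it departs. The chance rate is therefore no fair measure for these 12. That library stood apart on the first principal component (0.909) and for Opalin (0.865), Steap4 (0.837), Slc6a15 (0.965), Gm28439 (0.936, 0 CPM there), Fyn (0.906), Amotl1 (0.857), Ccng1 (0.840), Hmgcs1 (0.927), Gal3st1 (0.834), Atp1b2 (0.877) and Xist (0.869). SRF-KO OL replicate 2 stood apart for Tubb4a (0.832), at 1754 CPM. Control OL replicate 3 did so for the total expected count (0.953), Olfml3 (0.861), Ccnb2 (0.832) and Elavl4 (0.938). Control OL replicate 2 did so for Lats2 (0.842), and control OL replicate 4 for mt-Atp6 (0.917) and Malat1 (0.956), at 1976 and 2869 CPM.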

How the results depend on the processing

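The 45 calls (10 higher, 35 lower) became 289 (88 and 201) with DESeq2, 74 (39 and 35) with library totals, 129 (32 and 97) without a low-count filter, 1333 (529 and 804) with limma voom sample weights and 24 (9 and 15) without genes that meet the intron mark. Leaving out 1 library gave 7 to 636 calls, 4 to 231 of them higher and 3 to 405 lower. The 636 calls without SRF-KO OL replicate 4 became 1073 (377 and 696) with DESeq2 and 1691 (1490 and 201) with library totals, and 32 to 1985 (15 to 713 higher, 17 to 1272 lower) without 1 further library, a repeat chosen after seeing the data. The log2 fold change of Srf ran from -1.62 to -1.34 over the fits without 1 library and reached -1.75 without 2, and its edgeR adjusted p rose above 0.05 in 6 of the 8 fits without 1 library, at 0.0724 to 0.104. The labels do not say that same-numbered control and knockout libraries are pairs, and they were not taken as such. Their deviations from the group means correlated at 0.03, -0.24, -0.08 and -0.28. Those means include the outlying SRF-KO OL replicate 4, so the correlations cannot exclude pairing. A fit with the replicate number as a block (replicate block) made 5 calls (3 higher, 2 lower) and gave Srf -1.45 (edgeR adjusted p = 0.193). None of the 115 named genes had a sign change in which either value passed the threshold. Of 28 list medians 25 moved by more than the spread of the controls under library totals. Median-ratio scaling, the stricter filter and leaving out mitochondrial genes kept the count of calls within 43 to 46. Depth limits low genes most: Srf rests on 10 counts in SRF-KO OL replicate 3.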
